A study of Mus musculus with 18 samples.

Results

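The 61 genes described here encode transporters that carry amino acids and neurotransmitters across the plasma membrane, into synaptic vesicles or out of lysosomes. They were chosen by their gene symbols, with earlier results of these data known. They belong to the solute carrier families Slc1, Slc6, Slc7, Slc17, Slc18, Slc32, Slc36 and Slc38. *Slc6a6*, *Slc38a2*, *Slc17a8* and *Slc18a2* were left out. The transporters make up 61 of the 18193 genes measured. RNA of whole dorsal root ganglia (DRG) was hybridised to Affymetrix mouse genome arrays, with 18 arrays in 6 groups of 3. Each group was either a knockout (KO) line, which lacked the sodium channel Nav1.7 (gene *Scn9a*), Nav1.8 (*Scn10a*) or Nav1.9 (*Scn11a*), or the littermates of that line, labelled as wild type. No group received an agent. Mice of both sexes were used, 8 to 12 weeks old, and the sex of each array is not given. Nav1.7 was removed conditionally, from a floxed allele by Cre under the Advillin gene *Avil*, which acts in sensory neurons. The other 2 lines are called null mutants. Ganglia of all spinal levels were taken, so satellite glia, Schwann cells, vessels, macrophages and connective tissue were measured together with the neurons. In such bulk RNA, fewer cells of a type and less RNA per cell cannot be told apart. The study counts mice as its replicates, and the labels do not tie an array to an animal. A p-value here sets a difference of group means against the spread among arrays within groups, pooled over the 6 groups unless stated otherwise. Each group has only 3 arrays, and this small number limits the precision.

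Transmitter transporters work in pairs. Vesicular carriers, powered by the proton pump of the vesicle, concentrate transmitter for release. Sodium-driven carriers of the Slc1 and Slc6 families remove transmitter from the extracellular space, in ganglia largely into satellite glia. Most sensory neurons of the DRG release glutamate, which is loaded by the vesicular transporter encoded by *Slc17a6*. The Slc7 and Slc38 families supply cells with neutral and cationic amino acids, and many Slc7 proteins reach the membrane only when joined to a heavy chain, *Slc3a2* or *Slc3a1*.

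Values are log2 intensities of the brightest probe set of each gene, and a difference of 1 is a 2.00-fold change. Array medians were 6.33 to 6.36. *Scn10a* was 2.98-fold lower in Nav1.8 KO DRG (adjusted p = 5.4e-05 from limma) and *Scn11a* 3.62-fold lower in Nav1.9 KO DRG (adjusted p = 7.13e-07). *Scn9a* differed by -0.06 in Nav1.7 KO DRG (adjusted p = 0.642), where a probe set outside the deleted part tests nothing, and *Avil* was 1.56-fold lower there (adjusted p = 8.03e-08). Loss of Nav1.7 and Cre under *Avil* come together and cannot be told apart. By *Xist*, the RNA of the inactive X chromosome, 7 arrays were high (at least 11.97) and 11 low (at most 5.65). All 3 Nav1.7 littermates, 2 of 3 Nav1.7 KO and 2 of 3 Nav1.8 KO arrays were high, and the other arrays were low. Mean levels of 11 neuronal markers were 12.86 to 13.01 per array and those of 11 spinal cord markers 4.98 to 5.11.

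Within groups the transporters were steady. The pooled standard deviation (SD) over the 6 groups had a median of 0.106 and ran from 0.0275 for *Slc36a4*, a proton-coupled amino acid carrier, to 0.226 for *Slc6a4*, the serotonin transporter. The 40th percentile of brightness over all genes left 33 members above it and 28 below. The values in every array, set out by role, show most rows pale and a few that were low in the Nav1.7 littermates, among them *Slc6a13*, *Slc38a10*, *Slc38a6* and *Slc1a6*.

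**Figure D1:**
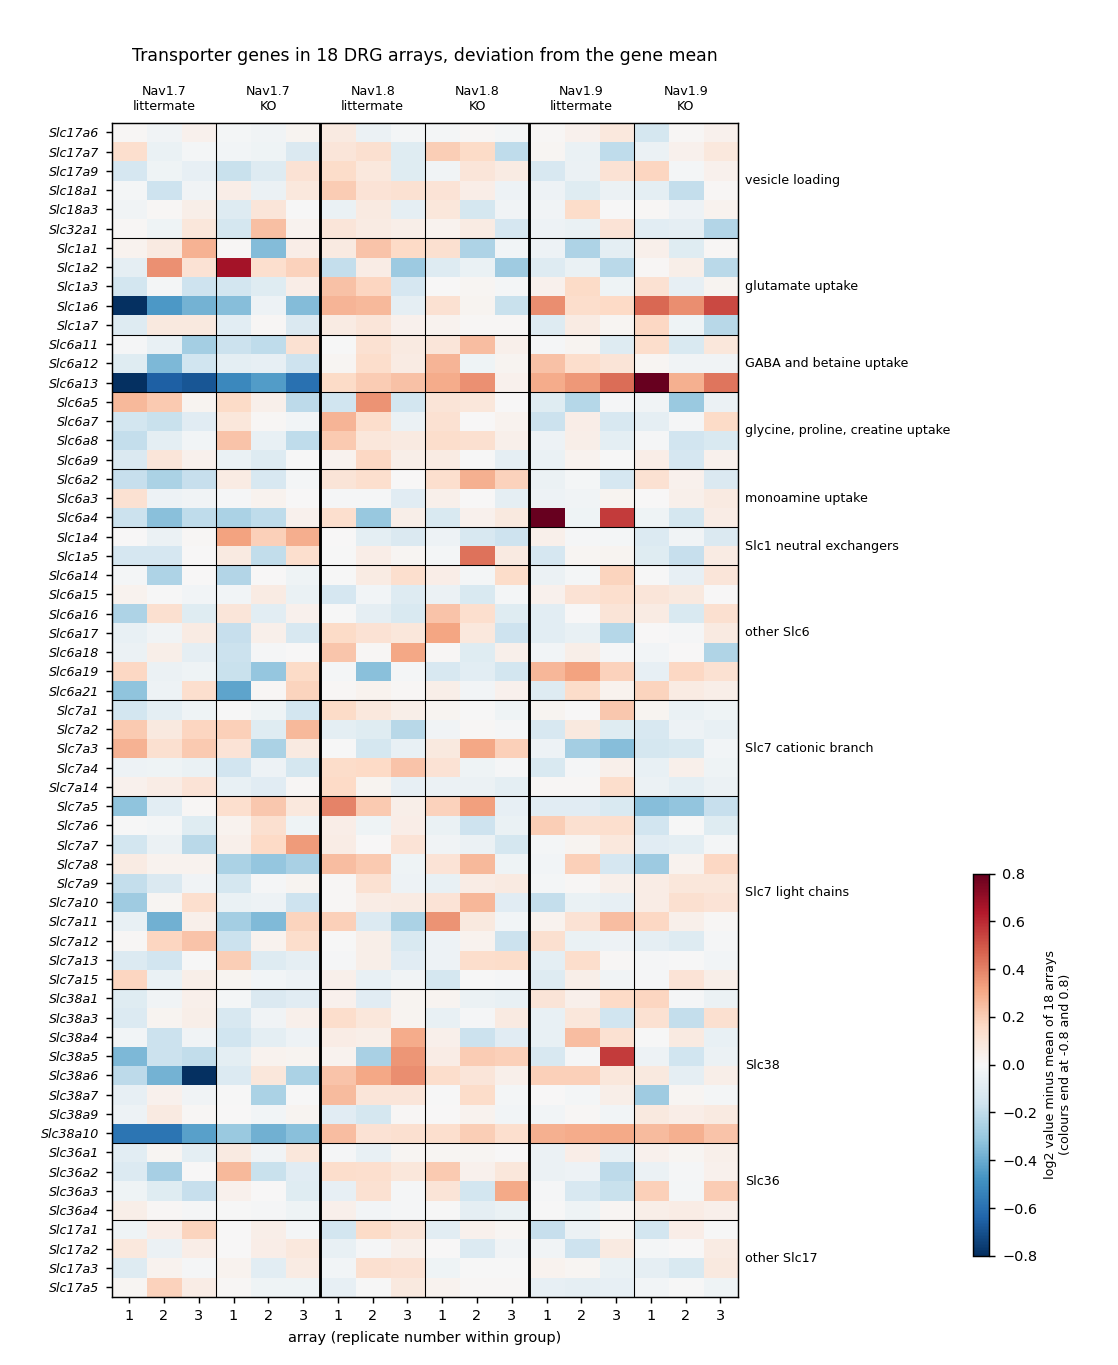
Log2 value of each of the 61 transporter genes in each of the 18 arrays, minus the mean of the gene over the 18 arrays (colour, ending at -0.8 and 0.8), with genes grouped by role in rows and arrays by line and genotype in columns. *Slc6a13*, *Slc38a10*, *Slc38a6* and *Slc1a6* are low in all 3 Nav1.7 littermates, and *Slc1a4* is high in the 3 Nav1.7 KO arrays.

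The question of each KO comparison was whether loss of the channel came with altered transporter expression. In Nav1.7 KO DRG 3 of the 61 transporters rose and none fell: *Slc1a4*, an exchanger of small neutral amino acids, *Slc7a7*, the light chain of a cationic amino acid exchanger, and *Slc38a10*, a Slc38 protein of little-known function. Their increases were 1.22-fold, 1.25-fold and 1.14-fold. No transporter passed an adjusted p of 0.05 (limma) after loss of Nav1.8 or of Nav1.9.

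These 3 calls have to be read against all genes. In Nav1.7 KO DRG 4.33% of all genes passed (1.81% rose and 2.51% fell), against 3 of 61 transporters, a share near the background. The background was 0.0165% in the Nav1.8 line and 0.473% in the Nav1.9 line. At an unadjusted p under 0.05, 13 transporters passed in the Nav1.7 line (9 up and 4 down, beside 16.3% of all genes), 5 in the Nav1.8 line (1 up and 4 down, beside 8.09%) and 4 in the Nav1.9 line (1 up and 3 down, beside 12.1%). At an unadjusted p under 0.01 (limma) together with a fold change over 1.5, 0 transporters passed in any line. The shares of all genes were 0.676%, 0.055% and 0.22%. The study names an analysis of variance p under 0.01 and a 1.5-fold change in separate places, without saying whether p was adjusted. The median log2 fold change of the 61 was -0.002, -0.014 and -0.024 in the Nav1.7, Nav1.8 and Nav1.9 lines, beside 0.008, -0.014 and 0.002 over all genes. Changes were small in size: 59 transporters in the Nav1.7, 61 in the Nav1.8 and 60 in the Nav1.9 line lay under 1.25-fold.

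**Figure D2:**
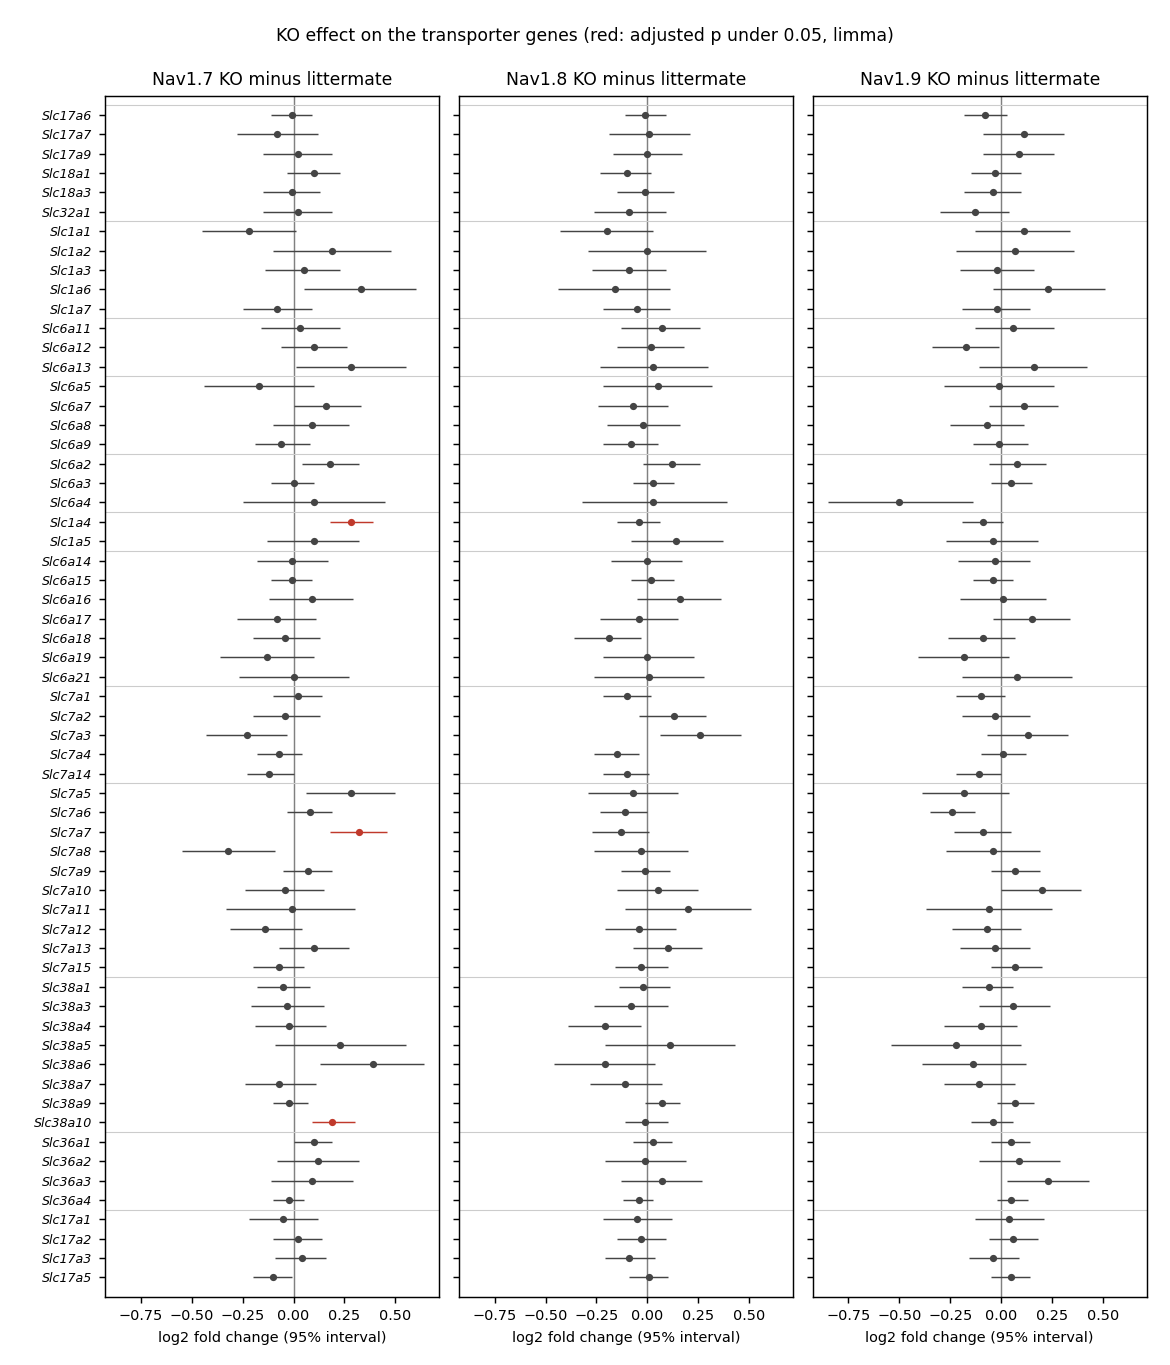
Log2 fold change of each transporter in KO DRG minus littermates of the same line (points) with its 95% interval from limma (bars), for the 3 lines side by side and genes ordered by role. Red points passed an adjusted p of 0.05, which are *Slc1a4*, *Slc7a7* and *Slc38a10* in Nav1.7 KO DRG.

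The 6 genes grouped here as loading synaptic vesicles did not pass in any line. They do not cover all vesicular carriers. *Slc17a8* and *Slc18a2*, of the same families, were left out and not examined. *Slc6a17*, a vesicular carrier of neutral amino acids, was counted with the Slc6 family. *Slc17a6*, the vesicular glutamate transporter of most DRG neurons, was 12.38, 12.34 and 12.40 in the Nav1.7 littermates and 12.35, 12.34 and 12.39 in Nav1.7 KO DRG. The groups overlapped, and the log2 fold change was -0.01 with a 95% interval of -0.11 to 0.09. It was also -0.01 (-0.11 to 0.09) in the Nav1.8 and -0.08 (-0.18 to 0.03) in the Nav1.9 line.

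The dimmer of the 2 *Slc17a6* probe sets gave another picture in 1 line. It read 11.13, 11.02 and 11.08 in Nav1.7 littermates and 10.36, 10.45 and 11.05 in Nav1.7 KO DRG. Of the KO arrays, 2 lay below all littermates and 1 among them, with a log2 fold change of -0.46 (standard error 0.122) that did not pass when all probe sets were tested (adjusted p = 0.0636 from limma). In the other lines this probe set differed by 0.09 and 0.11. Which transcripts each probe set reads was not tested.

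Among the other genes of this vesicle loading group, log2 fold changes lay between -0.13 and 0.11 over the 3 lines. *Slc17a7*, a second vesicular glutamate transporter, differed by -0.08 in the Nav1.7, 0.01 in the Nav1.8 and 0.11 in the Nav1.9 line, with intervals reaching from -0.28 to 0.31. *Slc17a9*, the vesicular nucleotide transporter that loads ATP, differed by 0.02, -0.00 and 0.09. *Slc18a3*, which loads acetylcholine, differed by -0.01, -0.01 and -0.04, at levels of 3.89 to 4.18 in all 18 arrays.

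*Slc32a1*, which loads GABA and glycine, was 6.16, 6.15 and 6.31 in Nav1.9 littermates and 6.12, 6.13 and 5.97 in Nav1.9 KO DRG. All 3 KO arrays lay below the littermates, by a log2 fold change of -0.13 (-0.30 to 0.04, adjusted p = 0.568 from limma). In the Nav1.7 and Nav1.8 lines the KO and littermate arrays overlapped with this brightest probe set. The other 3 of the 4 *Slc32a1* probe sets went the other way in Nav1.9 KO DRG. They differed by 0.22, 0.23 and 0.12, and none passed over all probe sets.

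Glutamate uptake genes also passed in no line. *Slc1a2* and *Slc1a3*, the main glial glutamate transporters, differed by 0.19 (-0.10 to 0.48) and 0.05 (-0.14 to 0.23) in Nav1.7 KO DRG. *Slc1a2* was 7.20, 7.64 and 7.39 in those littermates and 7.94, 7.41 and 7.46 in the KO arrays, which overlapped, and the largest of these values came from 1 KO array. *Slc1a1*, the neuronal glutamate and cysteine transporter, differed by -0.22 (-0.45 to 0.01), -0.20 (-0.43 to 0.03) and 0.11 (-0.13 to 0.34) in the Nav1.7, Nav1.8 and Nav1.9 lines.

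*Slc1a6*, a glutamate transporter best known from cerebellar Purkinje cells, was 5.13, 5.55 and 5.63 in Nav1.7 littermates and 5.67, 5.97 and 5.66 in KO DRG. The groups did not overlap, and the log2 fold change of 0.33 did not pass (adjusted p = 0.205 from limma). All 3 KO arrays of the Nav1.9 line were again higher than their littermates, by 0.23 (adjusted p = 0.508).

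**Figure D3:**
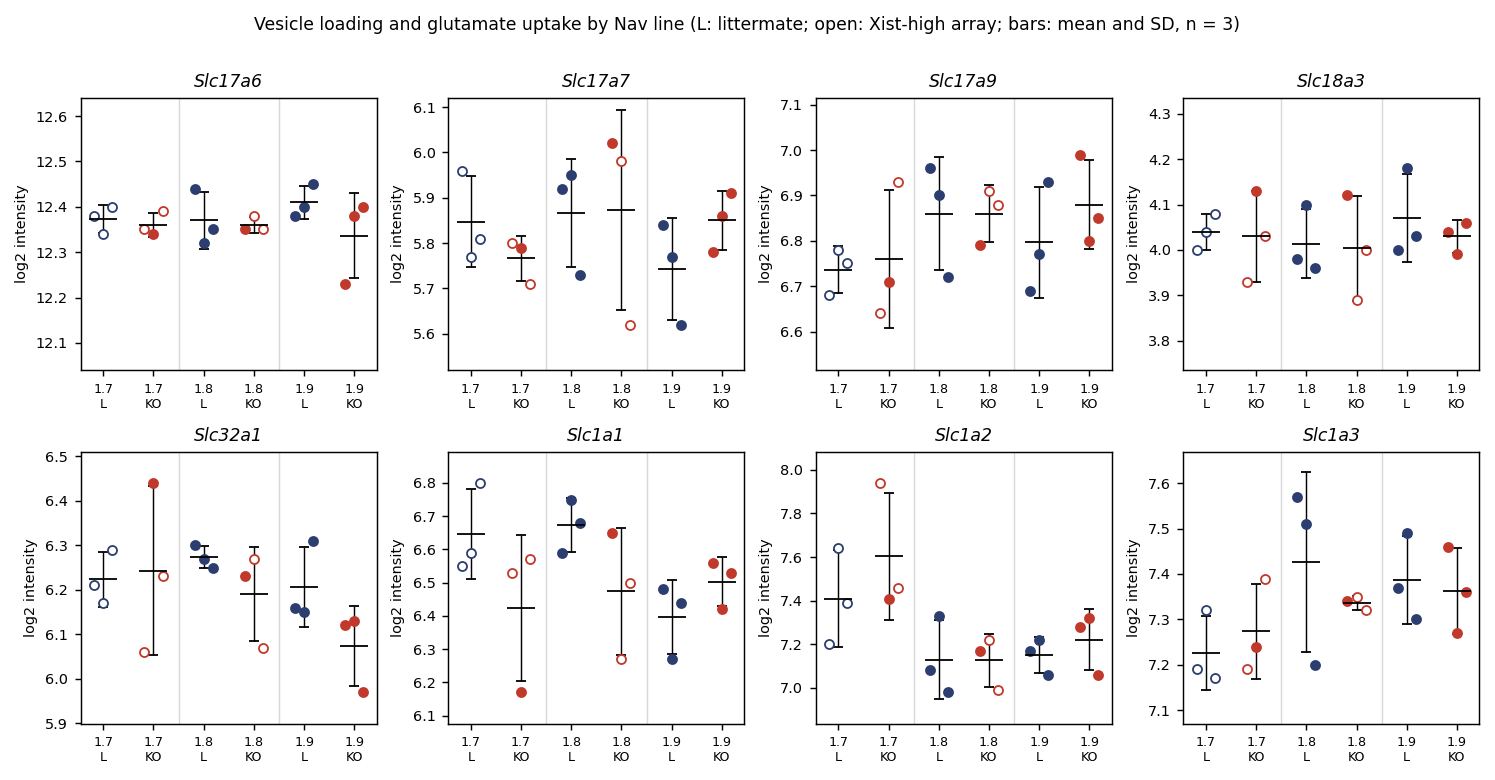
Log2 intensities of 5 vesicle loading genes and 3 glutamate uptake genes in each array (points, open for *Xist*-high arrays) by line and genotype, with group mean and SD (lines and whiskers, n = 3 arrays). KO and littermate arrays overlap in every panel and line except *Slc32a1* in the Nav1.9 line.

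*Slc1a4* was the transporter with the smallest adjusted p. It encodes ASCT1, a sodium-dependent exchanger of serine, alanine and threonine, and D-serine is also among its substrates. It was 9.48, 9.43 and 9.49 in Nav1.7 littermates and 9.80, 9.67 and 9.77 in Nav1.7 KO DRG. Every KO array lay above every littermate array, and also above all 12 arrays of the other lines, where it ran from 9.31 to 9.52. The means were 9.47 ± 0.0359 and 9.75 ± 0.0664 (SD, n = 3 arrays), with a log2 fold change of 0.28 (standard error 0.0486, adjusted p = 0.00264 from limma).

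In Nav1.8 KO DRG *Slc1a4* differed by -0.04 and in Nav1.9 KO DRG by -0.09, and neither passed. The increase rests on 1 of 3 probe sets. The other 2, at mean levels of 7.77 and 7.54, differed by 0.09 and 0.03 in Nav1.7 KO DRG, and the mean of all 3 probe sets gave 0.13 (adjusted p = 0.13 from limma). With probe sets that may bind several transcripts left out, the value was 0.09 (adjusted p = 0.637). *Slc1a5*, the paralogue that exchanges glutamine, differed by 0.10, 0.14 and -0.04 in the 3 lines. Its second probe set differed by -0.07, 0.36 and 0.19, and the value of 0.36 in Nav1.8 KO DRG did not pass (adjusted p = 0.466 from limma over all probe sets).

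Among the 10 light chains of the Slc7 family, 1 rose in Nav1.7 KO DRG and none passed elsewhere. *Slc7a7* encodes the light chain of a system that exports arginine and lysine in exchange for neutral amino acids and sodium. It was 10.13, 10.23 and 10.06 in Nav1.7 littermates and 10.32, 10.44 and 10.62 in KO DRG. The groups did not overlap. Means were 10.14 ± 0.0861 and 10.46 ± 0.148 (SD, n = 3 arrays), and the log2 fold change was 0.32 (standard error 0.0651, adjusted p = 0.009 from limma).

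In the other lines *Slc7a7* lay lower in all 3 KO arrays, at 10.14 to 10.25 against 10.28 to 10.39 in Nav1.8 littermates (-0.13, adjusted p = 0.642) and at 10.19 to 10.26 against 10.26 to 10.36 in Nav1.9 littermates (-0.09, adjusted p = 0.642). The second *Slc7a7* probe set differed by 0.18 in Nav1.7 KO DRG (adjusted p = 0.641 over all probe sets). With littermate replicate 3 of this line left out, the brightest probe set gave 0.28 (adjusted p = 0.0506 from limma). The call was also lost with the mean of both probe sets (0.25, adjusted p = 0.163) and with the Nav1.7 line fitted alone (adjusted p = 0.159). *Slc7a7* is also expressed by macrophages. Of 13 measured macrophage markers all 13 were above 0 in Nav1.7 KO DRG, with a median log2 fold change of 0.38. Their mean level per array was 6.87 to 7.21 in littermates and 7.27 to 7.66 in KO DRG, and 1 of them, *Adgre1*, rose (0.37, adjusted p = 0.0285). The median of these markers was 0.06 in the Nav1.8 and -0.13 in the Nav1.9 line. Their part in the result was not tested.

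*Slc7a8*, the light chain of a neutral amino acid exchanger, moved the other way. It was 7.29, 7.25 and 7.25 in Nav1.7 littermates and 6.97, 6.91 and 6.96 in KO DRG. These groups were tight and did not overlap, with a log2 fold change of -0.32 (1.25-fold, adjusted p = 0.134 from limma). The spread in the other lines was wider, from 6.93 to 7.48, and the shared estimate of spread takes it in. Fitted on the Nav1.7 arrays alone the same difference passed (adjusted p = 0.0224), while *Slc1a4* (0.0555), *Slc7a7* (0.159) and *Slc38a10* (0.205) did not.

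*Slc7a5*, the light chain that imports leucine and other large neutral amino acids, was 8.97, 9.21 and 9.30 in Nav1.7 littermates and 9.43, 9.51 and 9.38 in KO DRG. It differed by 0.28 in this line, where no KO array overlapped a littermate (adjusted p = 0.168 from limma), and by -0.18 in Nav1.9 KO DRG, where all 3 KO arrays lay below (adjusted p = 0.529). *Slc7a11*, the cystine and glutamate exchanger, differed by -0.01, 0.20 and -0.06 in the 3 lines, with overlapping arrays in each. *Slc3a2*, the heavy chain these proteins share, was not past the threshold either, at 0.12 in the Nav1.7 line (adjusted p = 0.337), -0.12 in the Nav1.8 line and -0.01 in the Nav1.9 line.

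*Slc7a6*, a second light chain of the arginine and neutral amino acid exchanger, was the transporter closest to the threshold in Nav1.9 KO DRG. It was 9.36, 9.29 and 9.30 in littermates and 9.01, 9.16 and 9.07 in KO arrays. The groups did not overlap, and the log2 fold change was -0.24 (-0.35 to -0.13, adjusted p = 0.0594 from limma). In Nav1.8 KO DRG all 3 KO arrays were again lower, by -0.11 (adjusted p = 0.612), and in Nav1.7 KO DRG the difference was 0.08. The second *Slc7a6* probe set differed by -0.13 in the Nav1.9 line. *Slc7a10*, a carrier of small neutral amino acids and D-serine, was higher in all 3 Nav1.9 KO arrays by 0.20 (adjusted p = 0.413).

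Of 8 Slc38 genes, sodium-coupled carriers of neutral amino acids, *Slc38a10* rose in Nav1.7 KO DRG. It was 9.71, 9.71 and 9.86 in littermates and 10.00, 9.91 and 9.96 in KO DRG, without overlap. The log2 fold change was 0.19 (standard error 0.0487, adjusted p = 0.0321 from limma). All 12 arrays of the other lines lay higher still, at 10.41 to 10.60. Its 7 probe sets differed by 0.00 to 0.28 in Nav1.7 KO DRG. Tested with all probe sets, the third brightest passed (0.28, adjusted p = 0.0284) and the brightest did not (adjusted p = 0.0655).

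The call on *Slc38a10* was the least stable of the 3. It was lost when littermate replicate 1 (adjusted p = 0.129 from limma), littermate replicate 2 (0.125), KO replicate 1 (0.119) or KO replicate 3 (0.0713) of this line was left out. *Slc38a6*, a related carrier, had the largest log2 fold change of the 61 in Nav1.7 KO DRG, 0.39 (adjusted p = 0.0863). It was 8.10, 7.93 and 7.47 in littermates and 8.20, 8.40 and 8.06 in KO DRG, which overlapped. Without littermate replicate 1 the value was 0.52 and passed (adjusted p = 0.019), and the second probe set gave -0.14. In both other lines its KO arrays lay below all littermates, by -0.21 in the Nav1.8 and -0.14 in the Nav1.9 line, and neither passed.

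The glutamine carriers *Slc38a1* and *Slc38a3* differed by -0.05 and -0.03 in the Nav1.7, -0.02 and -0.08 in the Nav1.8 and -0.06 and 0.06 in the Nav1.9 line. The second *Slc38a1* probe set was lower in all 3 Nav1.7 KO arrays, by -0.20 (adjusted p = 0.128 from limma over all probe sets). It differed by -0.04 and 0.02 in the Nav1.8 and Nav1.9 lines. *Slc38a3* lies within 20 Mb of *Scn10a* and *Scn11a*, and of the 61 transporters no other lies this near to a targeted gene or *Avil*. In Nav1.8 KO DRG *Slc38a4*, at 3.80 to 4.27 in all arrays, was lower in all 3 KO arrays, by -0.21 (adjusted p = 0.551 from limma).

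**Figure D4:**
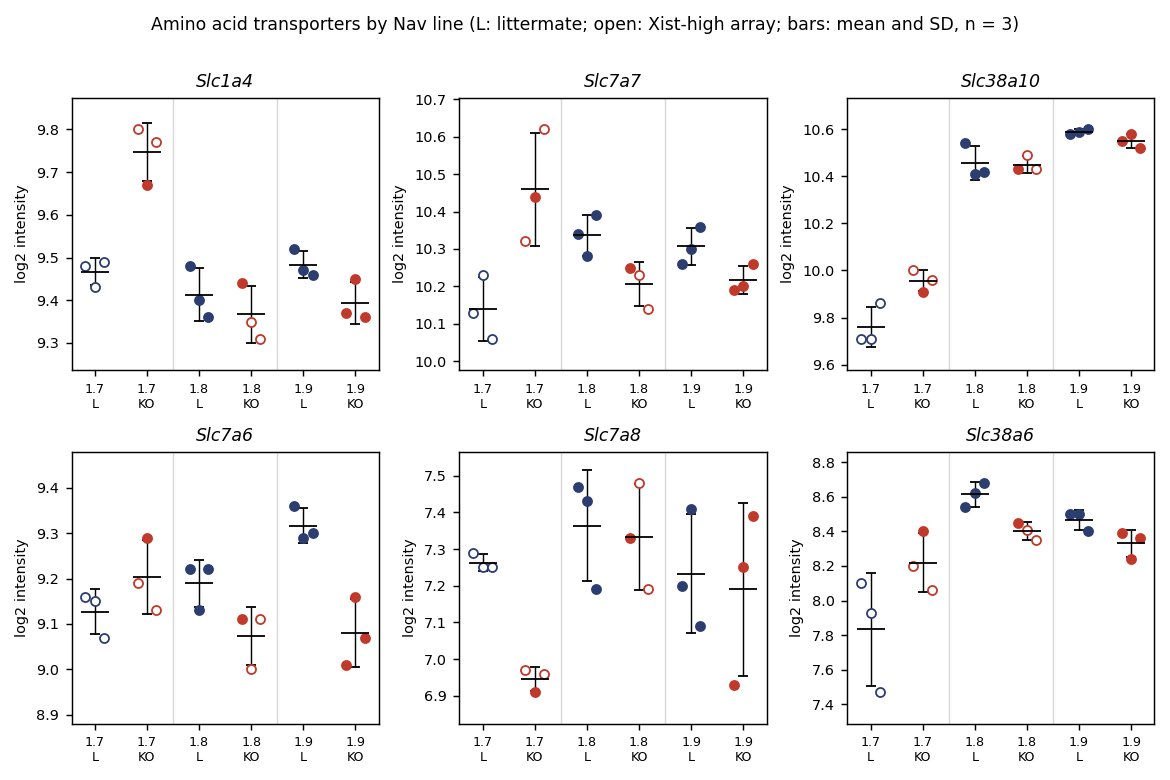
Log2 intensities of 6 amino acid transporters in each array (points, open for *Xist*-high arrays) by line and genotype, with group mean and SD (lines and whiskers, n = 3 arrays). *Slc1a4*, *Slc7a7* and *Slc38a10* are higher in all 3 Nav1.7 KO arrays than in their littermates, *Slc7a8* is lower, and *Slc7a6* is lower in all 3 Nav1.9 KO arrays.

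None of the 5 genes of the cationic Slc7 branch passed. *Slc7a3*, an arginine and lysine carrier encoded on the X chromosome, was 8.10, 7.95 and 8.03 in Nav1.7 littermates and 7.93, 7.57 and 7.89 in KO DRG. In the Nav1.8 line it was 7.82, 7.68 and 7.76 in littermates and 7.90, 8.13 and 8.01 in KO DRG. Neither pair of groups overlapped, and the differences of -0.23 and 0.26 ran opposite ways (adjusted p = 0.221 and 0.538 from limma).

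These *Slc7a3* values followed the *Xist* classes. It was 7.89 to 8.13 in the 7 *Xist*-high arrays and 7.48 to 7.90 in the 11 *Xist*-low arrays. With the class in the model the KO differences were -0.15, 0.09 and 0.13 in the Nav1.7, Nav1.8 and Nav1.9 lines. The class term itself was 0.25 and did not pass over all genes (adjusted p = 0.347), and it passed for 0 of 61 transporters and 0.055% of all genes. At an unadjusted p of 0.00527 *Slc7a3* had the smallest p for this term after *Slc6a17*, a vesicular carrier of neutral amino acids.

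*Slc7a4*, an orphan of this branch, was 8.56, 8.57 and 8.64 in Nav1.8 littermates and 8.53, 8.38 and 8.40 in KO DRG. The groups did not overlap. The difference of -0.15 had the smallest unadjusted p of the 61 in this line (0.00936, adjusted p = 0.495 from limma). The KO array at 8.53 was *Xist*-low like the littermates, and those at 8.38 and 8.40 were *Xist*-high. With the class in the model the difference was -0.07 (adjusted p = 0.996). *Slc7a14*, a lysosomal protein, differed by -0.12, -0.10 and -0.11 in the 3 lines. Its KO arrays lay below all littermates in the Nav1.7 and Nav1.9 lines and not in the Nav1.8 line (adjusted p at least 0.284 in each, from limma). The second *Slc7a14* probe set, at a mean level of 5.01, went the other way in Nav1.7 KO DRG. It differed there by 0.34 (adjusted p = 0.152 from limma over all probe sets), and by -0.23 and -0.15 in the Nav1.8 and Nav1.9 lines.

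The Slc6 family takes up monoamines, GABA, glycine and other amino acids, and 0 of its 17 members passed in a KO line. *Slc6a4*, the serotonin transporter, was 6.88, 6.00 and 6.59 in Nav1.9 littermates and 6.00, 5.89 and 6.09 in KO DRG. The groups overlapped, since littermate replicate 2 read like the KO arrays while the other two littermates stood above all other 16 arrays. The log2 fold change was -0.50 (-0.85 to -0.14, adjusted p = 0.235 from limma), and it was -0.74 (adjusted p = 0.0147) without littermate replicate 2.

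*Slc6a2*, the noradrenaline transporter of sympathetic neurons, was 5.87, 5.80 and 5.87 in Nav1.7 littermates and 6.12, 5.93 and 6.04 in KO DRG. All KO arrays were higher, by 0.18 (adjusted p = 0.153 from limma). They were also higher in the Nav1.8 line, by 0.12 (adjusted p = 0.656 from limma), and overlapped the littermates in the Nav1.9 line. The 3 dimmer *Slc6a2* probe sets differed by -0.08, -0.02 and 0.09 in the Nav1.7 line and by -0.02, 0.02 and 0.06 in the Nav1.8 line. The glycine transporters *Slc6a5*, of inhibitory spinal neurons, and *Slc6a9*, of glia, differed by -0.17 and -0.06 in the Nav1.7, 0.05 and -0.08 in the Nav1.8 and -0.01 and -0.01 in the Nav1.9 line.

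Of the GABA and betaine carriers, *Slc6a12* was 5.17, 5.08 and 5.04 in Nav1.9 littermates and 4.95, 4.91 and 4.91 in KO DRG, a difference of -0.17 without overlap (adjusted p = 0.376 from limma). *Slc6a13*, expressed in meninges, differed by 0.28 in Nav1.7 KO DRG (adjusted p = 0.277). *Slc6a18*, a neutral amino acid carrier of the kidney, differed by -0.19 in Nav1.8 KO DRG (adjusted p = 0.561), at levels of 4.35 to 4.90 in all arrays.

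The proton-coupled Slc36 genes and the remaining Slc17 genes stayed below the threshold in every line. *Slc36a3* was 5.33, 5.21 and 5.16 in Nav1.9 littermates and 5.53, 5.32 and 5.54 in KO DRG, which overlapped, with a difference of 0.23 (adjusted p = 0.351 from limma). Over the 3 lines the 4 Slc36 genes differed by -0.04 to 0.23 and the 4 other Slc17 genes by -0.10 to 0.06. *Slc17a5*, which exports sialic acid from lysosomes, was 9.49, 9.66 and 9.53 in Nav1.7 littermates and 9.48, 9.44 and 9.44 in KO DRG, a difference of -0.10 without overlap (adjusted p = 0.258).

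Arrays of KO and littermates did not overlap for 13 transporters in the Nav1.7 line (9 with all KO arrays above, 4 below), 10 in the Nav1.8 line (3 above, 7 below) and 17 in the Nav1.9 line (7 above, 10 below). Over all genes these shares were 20.4%, 13.8% and 18%. The members' counts come to 21.3%, 16.4% and 27.9% of 61.

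Whether a KO effect differed between lines was tested as the difference of the 2 effects. Between the Nav1.7 and Nav1.8 lines 2 transporters passed, *Slc1a4* (difference of log2 fold changes 0.33, adjusted p = 0.0212 from limma) and *Slc7a7* (0.45, adjusted p = 0.0177), beside 2.15% of all genes. Between the Nav1.7 and Nav1.9 lines 3 passed, *Slc1a4* (0.37, adjusted p = 0.00655), *Slc7a7* (0.41, adjusted p = 0.0231) and *Slc7a6* (0.32, adjusted p = 0.0293), beside 2.82% of all genes. Between the Nav1.8 and Nav1.9 lines 0 transporters passed, beside 0.0385% of all genes. At an unadjusted p under 0.05 there were 3, beside 9.04%.

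The difference of *Slc38a10* effects did not pass between any 2 lines, so its increase was not shown to be particular to the Nav1.7 line. With the *Xist* class in the model, 0 transporters differed between the Nav1.7 and Nav1.8 lines (adjusted p = 0.135 for *Slc1a4* and 0.147 for *Slc7a7*), beside 0.61% of all genes. The 3 differences between the Nav1.7 and Nav1.9 lines passed, beside 2.86%. Leaving out single arrays took the 2 differences to between 0 and 3 and the 3 differences to between 1 and 4.

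Array by array, 4 transporters had all KO arrays above the littermates in the Nav1.7 line and below them in the Nav1.9 line, beside 1.34% of all genes: *Slc1a4*, *Slc38a10*, *Slc7a5* and *Slc7a7*. *Slc17a5*, 1 of 61, had the opposite order, beside 1.09%. In 2 transporters the order was the same in both lines, above for *Slc1a6* and below for *Slc7a14*, beside 2% of all genes. In these 2 lines KO and littermate samples are not shared. These orders are those of the brightest probe sets. Of 7 *Slc38a10* probe sets, 2 were lower in Nav1.9 KO DRG (range -0.05 to 0.11). The second *Slc7a14* probe set was higher in Nav1.7 KO DRG, by 0.34.

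Littermates of the 3 lines were also compared with each other, as the background on which the KO effects stand. In this comparison line, strain, sex and array run cannot be told apart. Of the 61 transporters, 14 differed between Nav1.7 and Nav1.8 littermates (2 higher and 12 lower in the Nav1.7 line, beside 23.3% of all genes). Between Nav1.7 and Nav1.9 littermates 9 differed (2 higher and 7 lower, beside 12.2%), and between Nav1.8 and Nav1.9 littermates 4 differed (2 higher and 2 lower in the Nav1.8 line, beside 12.8%). Several transporters in this comparison were chosen for naming once their values had been seen.

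The largest difference was that of *Slc6a13*, a GABA and taurine carrier. It was 5.78, 6.18 and 6.15 in Nav1.7 littermates, 6.99, 7.04 and 7.07 in Nav1.8 littermates and 7.13, 7.18 and 7.28 in Nav1.9 littermates. All Nav1.7 littermates were below the others, by 2.00-fold against the Nav1.8 line (adjusted p = 9.9e-05 from limma) and 2.24-fold against the Nav1.9 line (adjusted p = 2.41e-05). The 3 Nav1.7 KO arrays, at 6.24 to 6.39, were also below all 12 arrays of the other lines. The 13 measured markers of fibroblasts and meninges had array means of 9.33 to 9.73 in Nav1.7, 10.00 to 10.06 in Nav1.8 and 9.79 to 10.07 in Nav1.9 littermates. In the same order, 11 endothelial and pericyte markers had 7.66 to 7.78, 8.07 to 8.09 and 8.05 to 8.12, and 13 macrophage markers 6.87 to 7.21, 7.55 to 7.67 and 7.47 to 7.62. Their part in this difference was not tested.

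*Slc38a10* was 1.62-fold lower in Nav1.7 than in Nav1.8 littermates (adjusted p = 6.01e-07 from limma) and 1.78-fold lower than in Nav1.9 littermates (adjusted p = 3.56e-08), beside its 1.14-fold increase in Nav1.7 KO DRG. *Slc38a6* was 1.71-fold and 1.55-fold lower (adjusted p = 0.000386 and 0.00256), and *Slc1a6* 1.65-fold and 1.73-fold lower (adjusted p = 0.00117 and 0.000911). *Slc6a12*, the neighbour of *Slc6a13* on the chromosome, was 1.21-fold and 1.29-fold lower (adjusted p = 0.016 and 0.00562). The dimmer *Slc38a6* probe set read 4.81 to 5.01 in Nav1.7, 4.92 to 5.03 in Nav1.8 and 4.67 to 4.87 in Nav1.9 littermates. Against Nav1.9 littermates, the mean of both probe sets gave -0.23 (adjusted p = 0.0912 from limma). With the *Xist* class in the model, *Slc38a6* passed only against Nav1.8 littermates (adjusted p = 0.13 against Nav1.9). *Slc1a6* (0.113 and 0.0898) and *Slc6a12* (0.532 and 0.277) passed against neither.

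*Slc7a3* was higher in Nav1.7 littermates, by 1.21-fold and 1.34-fold (adjusted p = 0.0445 and 0.00741 from limma). The Nav1.7 littermates were all *Xist*-high and the other littermates all *Xist*-low. With the class in the model, a setting estimated from the KO arrays of mixed class, 4 transporters differed between Nav1.7 and Nav1.8 littermates (beside 6.9% of all genes) and 3 between Nav1.7 and Nav1.9 littermates (beside 4.74%), *Slc6a13* and *Slc38a10* in both. *Slc7a3* did not pass in either, with log2 differences of 0.02 (adjusted p = 0.934 from limma) and 0.17 (adjusted p = 0.404). Within the littermate arrays alone, line and *Xist* class cannot be told apart.

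**Figure D5:**
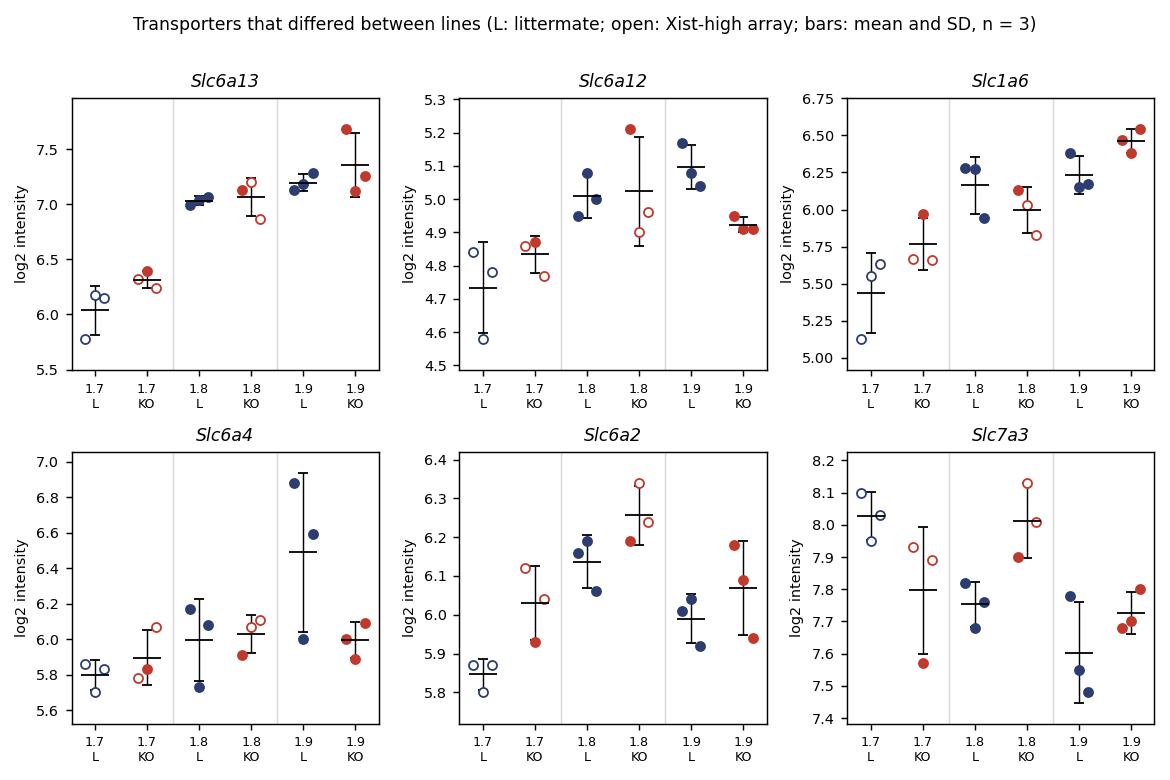
Log2 intensities of 6 transporters that differed between Nav1.7 littermates and those of at least 1 other line, in each array (points, open for *Xist*-high arrays), with group mean and SD (lines and whiskers, n = 3 arrays). *Slc6a13* is lower in all 6 Nav1.7 arrays than in the other 12, and *Slc6a4* is high in 2 of 3 Nav1.9 littermates.

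Genes of the metabolism of the carried molecules were counted in the same way. For all lists below, 4.33%, 0.0165% and 0.473% of all genes passed in the Nav1.7, Nav1.8 and Nav1.9 lines. The medians over all genes were 0.008, -0.014 and 0.002. Of 15 measured genes of glutamate, GABA and glycine metabolism, 1 fell in Nav1.7 KO DRG, *Abat*, which breaks down GABA (-0.26, adjusted p = 0.0344 from limma). Of 11 genes of monoamine and acetylcholine metabolism 2 fell, *Th*, which makes the dopamine precursor and marks low-threshold C fibres (-2.26, adjusted p = 6.46e-09), and *Maoa*, which degrades monoamines (-0.27, adjusted p = 0.00138). Medians of the lists were -0.02 and -0.04. None of either list passed in Nav1.8 KO or Nav1.9 KO DRG.

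Of 10 arginine, polyamine and nitric oxide genes 1 rose in Nav1.7 KO DRG, *Asl*, an enzyme of arginine synthesis (0.27, adjusted p = 0.0489 from limma), and of 10 glutathione genes none passed. Of 18 genes that rise when amino acids are short 1 rose, *Eif4ebp1*, a brake on translation (0.30, adjusted p = 0.00443). The list had a median of 0.12 in this line, with 16 of 18 above 0, beside -0.01 in the Nav1.8 and -0.04 in the Nav1.9 line. Its central members *Atf4* and *Asns* differed by -0.05 and 0.05 in Nav1.7 KO DRG and did not pass.

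Of 20 genes of amino acid sensing at the lysosome, *Lamtor2* (0.40, adjusted p = 0.00798 from limma) and *Lamtor4* (0.31, adjusted p = 0.0178), scaffold proteins of the sensing complex, rose in Nav1.7 KO DRG and *Rragd*, a GTPase of it, fell (-0.23, adjusted p = 0.0375). The median was -0.05. *Slc38a9*, the lysosomal arginine sensor among the transporters, differed by -0.02 in this line. None of the arginine, glutathione, shortage and sensing genes passed in the Nav1.8 or Nav1.9 lines.

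Of 20 measured genes that nerve damage raises in DRG neurons, 4 rose in Nav1.7 KO DRG (*Jun*, *Bdnf*, *Flrt3* and *Adcyap1*, median of the list 0.31), none passed in Nav1.8 KO DRG (median -0.24) and 8 fell in Nav1.9 KO DRG (median -0.45, all 20 below 0). Their array means were 9.14 to 9.79 in Nav1.9 littermates and 8.66 to 8.74 in Nav1.9 KO DRG. Of the transporters, *Slc7a5* differed by 0.28, -0.07 and -0.18 in the same 3 lines, and the part of nerve damage genes in this was not tested.

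Among markers of the cells of the ganglion, 1 of 11 neuronal markers fell in Nav1.7 KO DRG (*Avil*) and 1 of 9 satellite glia markers rose (*Fabp7*, 0.36, adjusted p = 0.0175 from limma). None of 9 Schwann cell, 11 endothelial and pericyte, 13 fibroblast and meningeal, 11 spinal cord or 9 muscle, fat and blood markers passed there. The muscle, fat and blood markers had a median of 0.70 (8 of 9 above 0), with array means of at most 7.66 in littermates and 6.51 to 8.89 in Nav1.7 KO DRG, and the endothelial and pericyte markers a median of 0.16 (8 of 11 above 0, 6 of 11 at an unadjusted p under 0.05). In the Nav1.8 and Nav1.9 lines no marker of these lists or of the macrophage list passed.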

How the data were processed

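Gene expression was measured on Affymetrix mouse genome arrays, 3 per group. The deposited values are log2 intensities per probe set, which per the submitters' processing notes come from Affymetrix Expression Console. How probes were summarised and arrays normalized is not given in the sources used here, and no detection calls were used, so signal over background is unknown for dim probe sets. The log2 unit was read from the values. Titles and genotypes gave the groups. A further label, which names every sample a littermate control, was set aside.

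Of 45101 probe sets, 64 controls were left out, 34945 had 1 gene symbol in the platform annotation, 932 several and 9160 none. Each of 18193 genes was represented by its brightest probe set named for it alone, with no filter. The 61 transporters have 122 such probe sets, and 29 have only 1. Symbols with letters after the digits (5 genes) were left out. All 61 matched RefSeq by Entrez identifier.

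The model (limma 3.58.1, R 4.3.3, lmFit, then eBayes; residual degrees of freedom 12, prior 3.44) had 6 group means and no covariate. Benjamini-Hochberg adjustment ran over all genes, at a threshold of 0.05, and intervals are at 95%. It was tested on simulated data. The members and lists were chosen with earlier results of these data known. Named are transporters past the threshold in a KO comparison or a difference of KO effects, the 6 with the smallest p per line and a fixed set of transmitter and amino acid carriers. In the other lists those past the threshold and up to 3 with the smallest p per line could be named, and other genes were named after their values were seen. Alternatives were each line fitted alone, quantile normalization, median centring, dim genes left out, the mean of all probe sets, each probe set tested separately, probe sets ending in a suffix for shared sequence left out, array weights, a trend with a robust prior, the *Xist* class, a replicate block, single arrays left out, other thresholds and an analysis of variance, which the study names for its array results without details. Those for littermates, and single arrays left out of the differences between lines, were chosen after seeing the data.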

Additional observations from a re-analysis of the deposited data

Results flagged for a closer look

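The KO effect on 3 transporters differed between lines by a test of the difference itself in limma. For *Slc1a4*, the neutral amino acid exchanger, the Nav1.7 effect exceeded the Nav1.8 effect by 0.33 (log2, adjusted p = 0.0212) and the Nav1.9 effect by 0.37 (adjusted p = 0.00655). The difference from the Nav1.8 line did not pass with the *Xist* class in the model (adjusted p = 0.135). For *Slc7a7*, the cationic exchanger light chain, the differences were 0.45 from the Nav1.8 line (adjusted p = 0.0177, and 0.147 with the class) and 0.41 from the Nav1.9 line (adjusted p = 0.0231). For *Slc7a6*, its relative, the Nav1.7 effect exceeded the Nav1.9 effect by 0.32 (adjusted p = 0.0293), although neither single effect passed. Leaving out any 1 of 6 arrays ended this call. Over 19 alternatives each, the differences passed in 13 (*Slc1a4*, Nav1.8), 19 (*Slc1a4*, Nav1.9), 16 (*Slc7a7*, Nav1.8), 14 (*Slc7a7*, Nav1.9) and 12 (*Slc7a6*).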

How the results depend on the processing

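Quantile normalization and median centring changed no call on a KO effect. The count of 3 transporters that rose in Nav1.7 KO DRG went to 1 with the line fitted alone (*Slc7a8*, which fell). With the mean of all probe sets it was 0. With suffixed probe sets left out it was 1 (*Slc38a10*, where *Slc7a7* has no probe set left to test). By analysis of variance after adjustment it was 1 (*Slc7a8*). At an unadjusted p under 0.01 with a fold change over 1.5 it was 0, by limma or by that analysis. Leaving out single arrays gave 2 to 3. The count of 0 in Nav1.8 KO DRG was 0 under all of these. The count of 0 in Nav1.9 KO DRG went to 1, *Slc7a6* (-0.24), with dim genes left out (adjusted p = 0.0308 from limma), the trend and robust prior (0.0312), array weights (0.0448) or the *Xist* class (0.0445), to 0 to 1 without single arrays (*Slc6a4* without littermate replicate 2), and to 3 by the analysis of variance at an unadjusted p under 0.01. Differences between the Nav1.7 and Nav1.8 effects went from 2 to 0 with the *Xist* class and to 0 to 3 without single arrays, and those between the Nav1.7 and Nav1.9 effects from 3 to 1 to 4. Differences between Nav1.7 and Nav1.8 littermates went from 14 to 4 with the *Xist* class and to 8 to 13 without single arrays, those between Nav1.7 and Nav1.9 littermates from 9 to 3 and to 6 to 9, and those between Nav1.8 and Nav1.9 littermates from 4 to 1 to 4. With the mean of all probe sets *Slc7a7* was higher in Nav1.7 than in Nav1.8 littermates, by 0.27 (adjusted p = 0.0405), where the brightest probe set was lower by -0.19. The cause was not tested, other than that fewer genes or samples enter some fits.

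Replicate numbers did not pair the samples: same-numbered arrays deviated together at -0.194 to 0.266. With the replicate block 3 transporters changed in Nav1.7 KO DRG, *Slc38a6* (adjusted p = 0.0495 from limma) in place of *Slc38a10* (0.0929), and 1 each differed between the Nav1.7 and Nav1.8 effects and between the Nav1.7 and Nav1.9 effects (*Slc1a4*). Counts in the Nav1.8 and Nav1.9 lines were 0 with the block.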
